A study of Mus musculus with 4 samples.

Results

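Heat shock proteins and their J-domain co-chaperones were read on the 4 arrays as all probes whose gene symbol in the series' probe table starts with Hsp or Dnaj, leaving out Hspg2 and Hspbap1, which are not chaperones of these families. The rule found 61 probes for 59 genes, among 16383 genes measured in all. By textbook location, 12 of the 59 products work in or on the endoplasmic reticulum (ER), 39 in the cytosol or nucleus or on the cytosolic face of vesicles, and 6 in mitochondria. The location of the other 2 (Dnajc4 and Tmem208) was not assigned. Tmem208 matched only through an older symbol (Hspc171) and is not a heat shock protein, and the label of the set does not describe it. Older symbols also stood for Hspa9 (Hspa9a) and Dnajb2 (Dnajb10). The symbol Hsp110 was kept as printed in the probe table, because RefSeq lists it for both Hsph1 and Hspa4, and its probe was placed in the cytosol.

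RNA labelled as dorsal raphe nucleus, the midbrain nucleus that holds most forebrain-projecting serotonergic neurons, was measured with 1 single-colour array per group, each carrying RNA pooled from 5 male mice on the C57BL/6J background aged 10 weeks. The groups were stressed wild-type mice (stressed WT), stressed mice lacking the dopamine D2 receptor (stressed D2R-KO), stressed mice lacking its long isoform (stressed D2LR-KO), and wild-type mice that were not stressed (non-stressed WT). The stressed mice swam for 6 min on 4 days in a row, and tissue was collected 12 h after the last swim. The series compares the 3 stressed groups with non-stressed WT. Here each knockout was also compared with stressed WT, and the D2LR-KO array with the D2R-KO array. No non-stressed knockout was analysed here, so genotype and swimming cannot be told apart when a knockout is set against non-stressed WT. With 1 pool and 1 array per group, no value below has a replicate error and no difference could be tested. The number of arrays limits the precision.

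HSP70 chaperones bind exposed hydrophobic stretches of client proteins in a cycle of ATP hydrolysis that J-domain proteins start and nucleotide exchange factors end. HSP90 chaperones take over many of these clients late in folding, and small heat shock proteins hold unfolded proteins without using ATP. Each compartment has its own set: BiP and GRP94 in the ER are under control of the unfolded protein response, mortalin and HSP60 serve protein import and folding in mitochondria, and the heat-inducible cytosolic members are targets of heat shock factor 1.

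The promoters of the members were searched for the elements of the unfolded protein response and the heat shock response, and those that held one are shown. RefSeq promoter windows (build GRCm38.p6, 250 bases before to 50 after a start) were found for 46 of the 59 members. The ER stress element was searched as CCAAT, then 9 bases of any kind, then CCACG. The heat shock element was searched as 3 units that alternate between GAA and TTC, starting with either, with 2 bases of any kind between units. Both were searched on both strands. The stretch printed is the 250 bases before the start, 5′ to 3′ on the strand of the gene, with each match in capitals (a match on the other strand reads as its reverse complement, and overlapping matches merge). The ER stress element was found in Hspa5 (BiP, the ER HSP70; chr2:34771840-34772089, plus strand), Hsp90b1 (GRP94, the ER HSP90; chr10:86705445-86705694, minus strand) and Dnajc3 (a J-domain partner of BiP; chr14:118937682-118937931, plus strand). The heat shock element was found in Hspd1 (HSP60, the mitochondrial chaperonin; chr1:55087933-55088182, minus strand) and in Dnajb6 (a cytosolic and nuclear J-domain protein; chr5:29735648-29735897, plus strand).
Hspa5: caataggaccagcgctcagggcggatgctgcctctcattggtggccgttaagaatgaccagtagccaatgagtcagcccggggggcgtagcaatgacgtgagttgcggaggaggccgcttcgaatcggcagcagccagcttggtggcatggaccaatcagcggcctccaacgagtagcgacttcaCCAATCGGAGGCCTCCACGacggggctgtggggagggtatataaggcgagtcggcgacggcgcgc
Hsp90b1: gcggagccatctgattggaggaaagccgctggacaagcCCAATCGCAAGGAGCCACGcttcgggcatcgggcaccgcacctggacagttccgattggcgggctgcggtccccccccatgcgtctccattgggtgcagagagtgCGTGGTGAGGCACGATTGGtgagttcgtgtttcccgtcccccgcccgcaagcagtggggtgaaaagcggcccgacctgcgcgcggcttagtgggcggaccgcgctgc
Dnajc3: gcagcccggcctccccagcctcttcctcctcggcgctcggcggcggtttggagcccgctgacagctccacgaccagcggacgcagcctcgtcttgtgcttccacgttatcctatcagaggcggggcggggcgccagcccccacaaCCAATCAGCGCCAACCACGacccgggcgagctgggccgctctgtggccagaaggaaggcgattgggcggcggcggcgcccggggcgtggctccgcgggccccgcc
Hspd1: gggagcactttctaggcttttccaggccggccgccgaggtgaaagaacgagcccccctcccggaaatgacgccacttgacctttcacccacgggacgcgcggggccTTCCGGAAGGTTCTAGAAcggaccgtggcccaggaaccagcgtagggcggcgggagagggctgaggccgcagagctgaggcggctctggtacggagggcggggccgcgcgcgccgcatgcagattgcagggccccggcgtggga
Dnajb6: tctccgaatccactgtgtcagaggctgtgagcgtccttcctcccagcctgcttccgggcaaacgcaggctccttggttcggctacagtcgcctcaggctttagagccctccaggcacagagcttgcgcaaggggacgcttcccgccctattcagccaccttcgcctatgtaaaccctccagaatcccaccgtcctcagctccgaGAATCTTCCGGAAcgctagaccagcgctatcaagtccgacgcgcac

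All 3 members with the ER stress element belong to the ER set, of which 11 had a window. They make up 6.52% of the 46 members, beside 0.137% of 27025 genes with windows. With the base just before the start as position -1, the matches begin at position -65 in Hspa5, at -212 and -107 in Hsp90b1, and at -105 in Dnajc3. The heat shock element stood in 2 of the 46 members (4.35%), beside 0.662% of all genes. Of these, 1 was among the 30 cytosolic members with a window and 1 among the 4 mitochondrial members with one. Dnajb1 and Hspb1 had windows and no match. The 13 members without a window included Hspa8, Hsp90aa1, Hsp90ab1 and Hspa9. In Hspd1 a pair of matches overlaps, at -144 and -139. In Dnajb6 the match lies at -46 from the start shown and at -127 from another start. A match describes the letters in these windows only.

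Nearly all members were detected. Of the 59 members, 57 were above the detection limit of the blank spots on all 4 arrays. Dnajc5b was above it on 3 arrays and Dnajc5g on 1. Of the members, 49 lay above the median signal of all genes. Values are given below as the authors' deposited intensities (array median 25). Log2 folds are from background-corrected, quantile-normalized signals on the log2(signal + 50) scale, which understates differences of dim genes. The threshold for a call was a fold of at least 1.5, which is 0.585 on the log2 scale. The local background, used as an alternative, is the brightness around each spot. The ratio of the deposited intensities and the log2 fold can differ, and for some members they differ in sign or in whether they pass 1.5-fold.

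The stressed WT array stood apart. Across 14704 genes detected on all arrays it correlated at 0.962 with non-stressed WT, 0.954 with D2R-KO and 0.957 with D2LR-KO, while the other 3 arrays correlated with each other at 0.990 to 0.994. Every comparison with stressed WT rests on that 1 array. Repeated control spots gave SDs of 0.10 to 0.20 for a log2 difference between arrays, which cover spots and not mice or labelling. The probe for Drd2, the gene of the deleted receptor, had 43.8 in stressed WT, 20.9 in D2R-KO, 48.3 in D2LR-KO and 26.8 in non-stressed WT, and whether it reads a deleted stretch was not established, so it does not check the labels. Tph2, the neuronal enzyme that limits serotonin synthesis, had 10.7 in stressed WT, 264.6 in D2R-KO, 151.5 in D2LR-KO and 31.4 in non-stressed WT. Tph2 was thus below the array median in stressed WT. The 6 serotonergic markers summed to 2091.5 in stressed WT, 3595.9 in D2R-KO, 3824.2 in D2LR-KO and 2544.0 in non-stressed WT, and Ddc and Slc18a2 made most of each sum. In stressed WT against non-stressed WT, 2 of the 6 were above 0 and 4 below. Tph2 alone was past 1.5-fold there, at -0.63, which became 0.08 with the local background. In each knockout 3 of the 6 were at least 1.5-fold higher, beside 0.577% of all genes in D2R-KO and 0.745% in D2LR-KO. The 6 choroid plexus markers summed to 5835.2 in stressed WT, 97.1 in D2R-KO, 276.1 in D2LR-KO and 13149.9 in non-stressed WT. Ttr made most of the sum on both WT arrays, at 5720.2 (stressed) and 12884.0 (non-stressed). Its D2R-KO value was 20.3 and its D2LR-KO value 193.1. On the log2 scale, 5 of the 6 were at least 1.5-fold lower in each stressed group than in non-stressed WT. Set against stressed WT, Ttr alone was lower in each knockout, and Kl was above 0. In pooled tissue, fewer cells of a type and less RNA per cell cannot be told apart, and the part of tissue makeup in the values below was not tested.

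**Figure D1:**
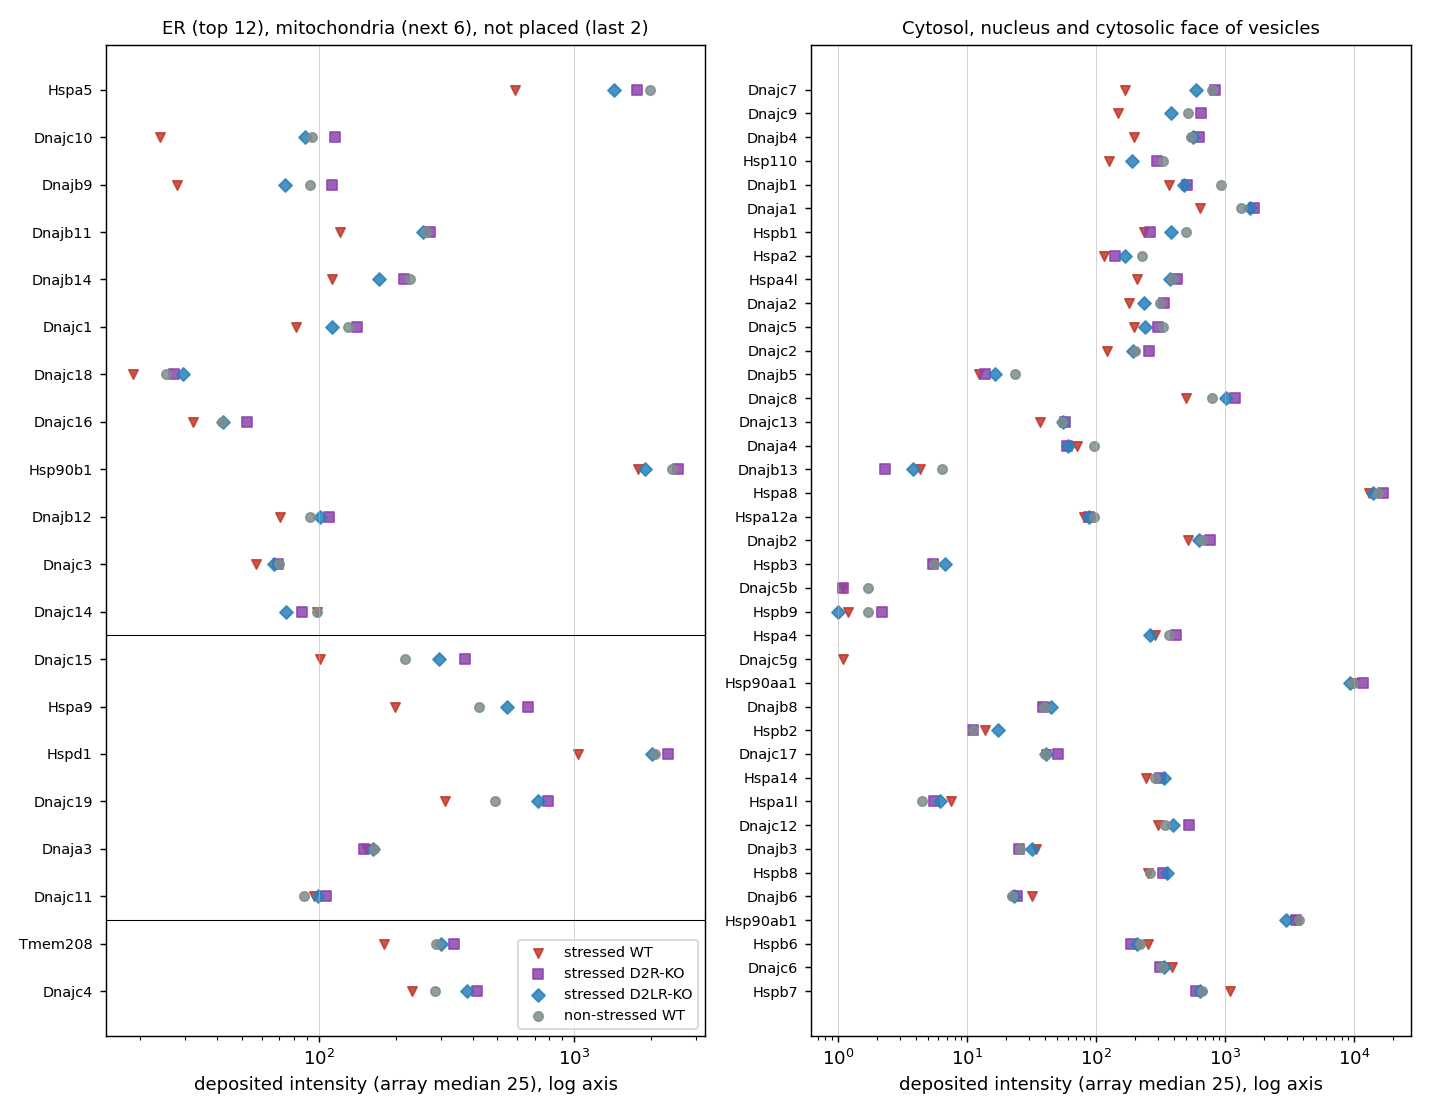
Deposited intensity (array median 25, log axis) of every member on the 4 arrays, ER, mitochondrial and unassigned members on the left and cytosolic members on the right, each sorted by the log2 fold of stressed WT against non-stressed WT. Stressed WT (red triangles) lies left of the other 3 arrays for Hspa5, Dnajc10 and Dnajb9, and right of them for Hspb7. Levels of different genes are read by different probes and are not compared.

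Stressed WT against non-stressed WT compares swum with unswum mice of 1 genotype. Most chaperone differences were downward. Of 59 members compared, 16 were at least 1.5-fold lower in stressed WT, beside 8.12% of all genes compared, and 1 (Hspb7) was at least 1.5-fold higher, beside 7.27% of all genes. The members' median log2 fold was -0.16, against 0.00 over all genes, with 19 members above 0 and 40 below. By place, 5 of 12 ER members, 3 of 6 mitochondrial members and 8 of 39 cytosolic members were lower, with medians of -0.28, -0.49 and -0.05. With the local background the ER, mitochondrial and cytosolic medians were -0.60, -0.27 and -0.03, so that the ER was lowest there. That background put 6, 2 and 9 members of those sets lower and 0, 1 and 6 higher. Median scaling gave medians of -0.66, -0.95 and -0.37. Bright genes passed the threshold more often. Among genes above the median signal, 14.5% were lower, beside 16 of the 49 members there (32.7%). Without quantile normalization, with arrays scaled by their median alone, 25 members were lower and 0 higher, and the median of the brighter genes was itself -0.33, beside -0.65 for the brighter members. Over all genes, median scaling gave 16.5% lower and 2.69% higher. With the deposited values 26 members were lower and 2 higher, beside 24.6% and 22.2% of all genes. With the local background 18 were lower and 7 higher, beside 9.96% and 9.88%, so that the higher share of calls was 28.0% in place of 5.9%. The 7 higher members were then near the share of all genes.

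Markers of several cell types differed on the same array. The 5 endothelial markers summed to 744.4 in stressed WT, against 1723.4 in non-stressed WT, with 5 of 5 below 0 and 3 at least 1.5-fold lower. The 5 astrocyte markers summed to 1831.8 in stressed WT and 3491.0 in non-stressed WT, with 4 below 0 and 1 past the threshold. The 4 pan-neuronal markers measured summed to 6547.0 in stressed WT and 10381.8 in non-stressed WT, with 2 below 0 and 1 past it. The 3 oligodendrocyte markers measured went the other way, with 9395.6 in stressed WT and 7330.1 in non-stressed WT, and 2 of them at least 1.5-fold higher. The astrocyte marker past the threshold was Gja1, with 747.9 in stressed WT and 2010.3 in non-stressed WT. Its log2 fold of -1.08 became 3.01 with the local background. With that background 2 astrocyte markers were higher and 0 lower, and 0 endothelial markers were higher and 2 lower. In the knockouts the endothelial sums were 1827.3 in D2R-KO and 1929.1 in D2LR-KO, and the astrocyte sums 3524.0 in D2R-KO and 3984.3 in D2LR-KO. The part of these markers in the chaperone values was not tested.

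Stressed WT was the lowest of the 4 arrays for 28 of the 57 members detected on all of them (49.1%, beside 38.6% of all genes). It was the highest for 11 (19.3%, beside 41.0% of all genes). Non-stressed WT was the highest array for 19 members (33.3%, beside 18.6%).

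**Figure D2:**
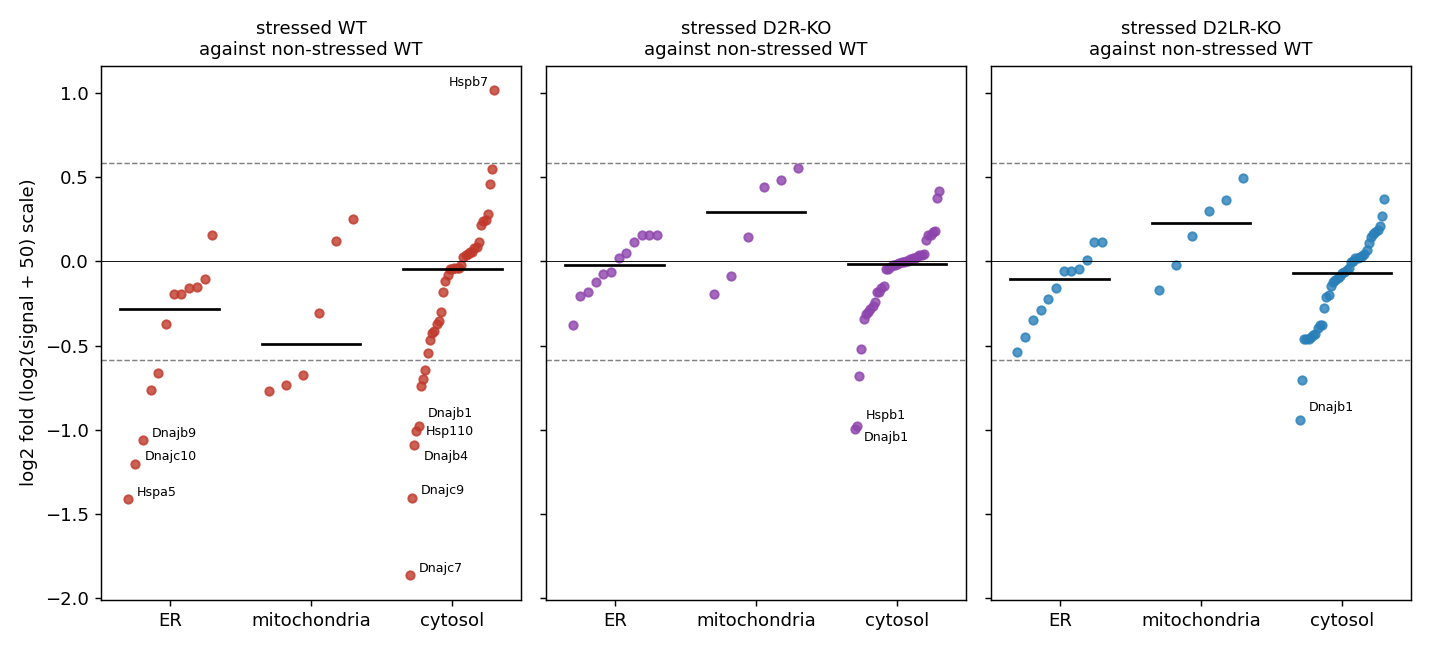
Log2 fold of each member (points, sorted within a compartment) against non-stressed WT in the 3 stressed groups. Black bars are medians and dashed lines mark 1.5-fold. In stressed WT the ER and mitochondrial medians are -0.28 and -0.49 (-0.60 and -0.27 with the local background, not drawn). In D2R-KO the mitochondrial median is 0.29 and in D2LR-KO 0.23, and Dnajb1 lies near -1 in all 3.

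In the ER, BiP carried the largest difference. Hspa5 had 587.1 in stressed WT, 1764.4 in stressed D2R-KO, 1432.1 in stressed D2LR-KO and 1974.9 in non-stressed WT. The stressed WT array was thus the low one, and both knockouts lay between it and non-stressed WT. Its log2 folds of -1.41 for stressed WT, -0.38 for D2R-KO and -0.54 for D2LR-KO share the non-stressed WT array. Dnajc10 (ERdj5), a disulfide reductase that helps misfolded proteins leave the ER, had 23.9 in stressed WT, 115.8 in D2R-KO, 88.6 in D2LR-KO and 94.2 in non-stressed WT, with a log2 fold of -1.20 in stressed WT. Dnajb9 (ERdj4), a J-domain protein induced by the unfolded protein response, had 27.9 in stressed WT, 113.1 in D2R-KO, 73.9 in D2LR-KO and 92.3 in non-stressed WT, with a log2 fold of -1.06 in stressed WT. For both genes stressed WT was lowest and the knockout arrays lay on either side of non-stressed WT. Dnajb11 (ERdj3), which binds clients for BiP, had 120.6 in stressed WT, 272.7 in D2R-KO, 254.9 in D2LR-KO and 262.4 in non-stressed WT, with -0.77 in stressed WT. Dnajb14, a membrane J-domain protein of the ER, had 112.5 in stressed WT, 215.5 in D2R-KO, 172.3 in D2LR-KO and 226.6 in non-stressed WT, with -0.66 in stressed WT.

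Other ER chaperones differed less. Hsp90b1 had 1775.8 in stressed WT, 2554.6 in D2R-KO, 1889.4 in D2LR-KO and 2413.0 in non-stressed WT, with log2 folds of -0.16 for stressed WT, -0.12 for D2R-KO and -0.45 for D2LR-KO. Dnajc3 had 56.7 in stressed WT, 69.0 in D2R-KO, 66.7 in D2LR-KO and 70.1 in non-stressed WT, with -0.10 for stressed WT, -0.06 for D2R-KO and -0.05 for D2LR-KO. Of the 3 genes whose promoters hold an ER stress element, Hspa5 was thus past 1.5-fold in stressed WT, and Hsp90b1 and Dnajc3 were not, although median scaling gave Hsp90b1 -0.65 and the local background Dnajc3 -0.64. In D2LR-KO, Hspa5 was past 1.5-fold with the local background, at -0.65, and with median scaling, at -0.70. Dnajc14 was the only ER member above 0 in stressed WT, at 0.16, with 98.1 in stressed WT and 98.6 in non-stressed WT. The 4 remaining ER members (Dnajb12, Dnajc1, Dnajc16 and Dnajc18) had log2 folds of -0.37 to -0.15. With the local background Hspa5, Dnajc10, Dnajb9 and Dnajb11 were still at least 1.5-fold lower in stressed WT. The stressed WT value was then -1.58 for Hspa5, -1.29 for Dnajc10, -0.83 for Dnajb9 and -1.18 for Dnajb11, while Dnajb14 was under the threshold at -0.57.

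In mitochondria, Hspa9, Dnajc15 and Hspd1 were at least 1.5-fold lower in stressed WT. Hspa9 (mortalin), the HSP70 that pulls proteins into the matrix, had 199.3 in stressed WT, 661.5 in stressed D2R-KO, 545.5 in stressed D2LR-KO and 425.8 in non-stressed WT. Stressed WT was the lowest array, and both knockouts lay above non-stressed WT. It had log2 folds of -0.74 for stressed WT, 0.44 for D2R-KO and 0.30 for D2LR-KO. Dnajc15 and Dnajc19, related J-domain proteins of the inner membrane that belong to the import motor, showed the same order of deposited intensities. Dnajc15 had 100.7 in stressed WT, 375.1 in D2R-KO, 296.9 in D2LR-KO and 217.8 in non-stressed WT, with log2 folds of -0.77 for stressed WT, 0.56 for D2R-KO and 0.36 for D2LR-KO. Dnajc19 had 310.9 in stressed WT, 792.3 in D2R-KO, 723.4 in D2LR-KO and 488.2 in non-stressed WT, with log2 folds of -0.31 for stressed WT, 0.48 for D2R-KO and 0.50 for D2LR-KO. On the log2 scale used here no knockout value of these 3 genes reached 1.5-fold. From the deposited values all 3 were past it in D2R-KO, with Hspa9 at 0.64, Dnajc15 at 0.78 and Dnajc19 at 0.70. Hspa9 was past it in both knockouts with the local background, at 0.71 in D2R-KO and 0.65 in D2LR-KO, and Dnajc19 in D2LR-KO, at 0.60. Hspd1 (HSP60) had 1035.0 in stressed WT, 2336.8 in D2R-KO, 2017.4 in D2LR-KO and 2074.9 in non-stressed WT, with log2 folds of -0.68 for stressed WT, -0.09 for D2R-KO and -0.17 for D2LR-KO.

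The other mitochondrial J-domain proteins did not share that order. Dnaja3 (Tid1), a matrix partner of mortalin, had 153.4 in stressed WT, 149.9 in D2R-KO, 162.9 in D2LR-KO and 164.1 in non-stressed WT, with log2 folds of 0.12 for stressed WT, -0.19 for D2R-KO and -0.02 for D2LR-KO. Dnajc11, found at contacts of the outer and inner membranes, had 95.4 in stressed WT, 106.4 in D2R-KO, 99.5 in D2LR-KO and 87.4 in non-stressed WT, with log2 folds of 0.25 for stressed WT, 0.14 for D2R-KO and 0.15 for D2LR-KO. With the local background the stressed WT value of Hspa9 was -0.29 and that of Dnajc15 -0.25, both under 1.5-fold, while Dnajc19 was at -1.39, Hspd1 at -0.87 and Dnaja3 at 1.29.

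In the cytosol, Hspa8 and the HSP90 genes were under 1.5-fold against non-stressed WT on the log2 scale used here. Hspa8 (HSC70), the constitutive HSP70 of neurons, had 12919.8 in stressed WT, 16723.2 in stressed D2R-KO, 13981.7 in stressed D2LR-KO and 15147.1 in non-stressed WT, with log2 folds of -0.08 for stressed WT, 0.00 for D2R-KO and -0.21 for D2LR-KO. Hsp90aa1, the inducible cytosolic HSP90, had 9982.0 in stressed WT, 11746.3 in D2R-KO, 9252.7 in D2LR-KO and 9696.8 in non-stressed WT, with log2 folds of 0.04 for stressed WT, 0.01 for D2R-KO and -0.28 for D2LR-KO. Hsp90ab1, the constitutive one, had 3490.7 in stressed WT, 3540.3 in D2R-KO, 2948.0 in D2LR-KO and 3747.1 in non-stressed WT, with log2 folds of 0.28 for stressed WT, -0.30 for D2R-KO and -0.45 for D2LR-KO. For Hsp90ab1 in stressed WT the sign depended on the scaling, since the deposited intensity was lower there than in non-stressed WT. In D2LR-KO all 3 HSP90 genes lay below non-stressed WT, by a median of -0.45, and none reached 1.5-fold. In D2LR-KO, Hsp90ab1 passed it with the local background, at -0.71, and both Hsp90ab1 and Hsp90b1 did with median scaling, at -0.59. Hspa8 was at -0.45 in stressed WT with median scaling.

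Among the other cytosolic HSP70 and HSP110 genes, 2 were past 1.5-fold in stressed WT. The probe named Hsp110, a nucleotide exchange factor of HSP70, had 125.5 in stressed WT, 295.8 in D2R-KO, 189.6 in D2LR-KO and 329.9 in non-stressed WT. Its log2 folds were -1.01 for stressed WT, -0.27 for D2R-KO and -0.70 for D2LR-KO, so that D2LR-KO was past 1.5-fold as well. Hspa2, an HSP70 best known from spermatogenesis, had 115.1 in stressed WT, 141.0 in D2R-KO, 167.6 in D2LR-KO and 228.3 in non-stressed WT, with log2 folds of -0.65 for stressed WT, -0.68 for D2R-KO and -0.39 for D2LR-KO. All 3 stressed arrays were below non-stressed WT for both genes. Hspa4 and Hspa4l, relatives of HSP110, had log2 folds of -0.02 and -0.54 in stressed WT. The stress-inducible pair Hspa1a and Hspa1b, and Hsph1 and Hspe1 under those symbols, were not analysed here.

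Dnajb1 was the only member at least 1.5-fold lower in all 3 stressed groups, which share the non-stressed WT array. Dnajb1 (HSP40), the heat-inducible J-domain partner of cytosolic HSP70, had 364.2 in stressed WT, 503.5 in stressed D2R-KO, 479.2 in stressed D2LR-KO and 921.3 in non-stressed WT. All 3 stressed arrays lay below the non-stressed array. Its log2 folds of -0.98 for stressed WT, -0.99 for D2R-KO and -0.94 for D2LR-KO are against non-stressed WT. With the local background they were -1.83 for stressed WT, -0.96 for D2R-KO and -0.85 for D2LR-KO, and from the deposited values -1.34 for stressed WT, -0.87 for D2R-KO and -0.94 for D2LR-KO. Within the stressed arrays, set against stressed WT, D2R-KO was at -0.02 and D2LR-KO at 0.03. This depended on the processing, since the local background gave 0.87 in D2R-KO and 0.98 in D2LR-KO, and the deposited values 0.47 in D2R-KO and 0.40 in D2LR-KO. Its value rests on 1 non-stressed pool.

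The cytosolic J-domain proteins with the largest differences in stressed WT were Dnajc7, Dnajc9 and Dnajb4. Dnajc7, which has tetratricopeptide repeats and binds HSP70 and HSP90, had 166.3 in stressed WT, 828.1 in D2R-KO, 593.9 in D2LR-KO and 789.9 in non-stressed WT, with log2 folds of -1.87 for stressed WT, -0.14 for D2R-KO and -0.46 for D2LR-KO. That stressed WT value became 0.75 under the local background. The brightness around its spot was 76.5 in stressed WT, 1002.7 in D2R-KO, 295.0 in D2LR-KO and 1540.3 in non-stressed WT, beside spot values of 302.9 in stressed WT, 1527.0 in D2R-KO, 934.5 in D2LR-KO and 1657.4 in non-stressed WT. Dnajb4, a relative of Dnajb1, had 196.5 in stressed WT, 626.5 in D2R-KO, 558.2 in D2LR-KO and 540.7 in non-stressed WT, with log2 folds of -1.09 for stressed WT, 0.03 for D2R-KO and 0.00 for D2LR-KO, and its stressed WT value likewise became 1.81. Dnajc9, a histone chaperone, had 147.8 in stressed WT, 649.1 in D2R-KO, 377.9 in D2LR-KO and 511.4 in non-stressed WT, with log2 folds of -1.40 for stressed WT, 0.16 for D2R-KO and -0.44 for D2LR-KO, and remained at -1.12 in stressed WT with that background. Dnaja1, a farnesylated partner of HSC70, had 632.8 in stressed WT, 1670.6 in D2R-KO, 1563.2 in D2LR-KO and 1328.2 in non-stressed WT, with log2 folds of -0.74 for stressed WT, 0.13 for D2R-KO and 0.14 for D2LR-KO. The D2LR-KO value of Dnaja1 was -2.39 with the local background, and Dnajc7 was at 1.32 in D2R-KO and 1.84 in D2LR-KO. Dnajb4 was then at 2.55 in D2R-KO and 1.19 in D2LR-KO.

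**Figure D3:**
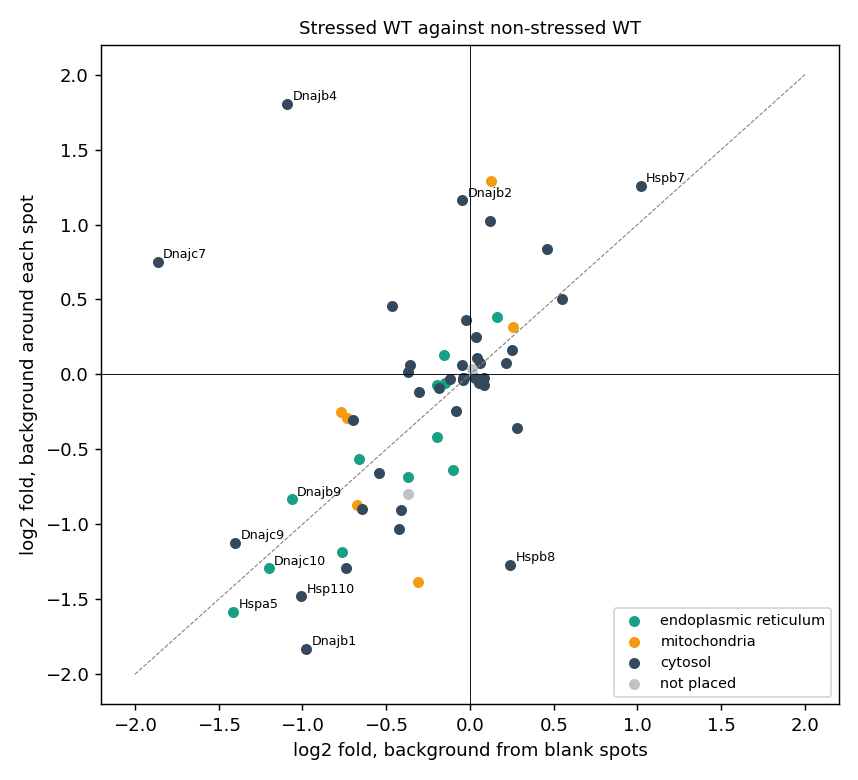
Log2 fold of each member in stressed WT against non-stressed WT, with the background taken from blank spots (x axis) and around each spot (y axis). Hspa5, Dnajc10, Dnajb9, Dnajc9, Hsp110 and Dnajb1 lie in the lower left with both. Dnajc7 and Dnajb4 are at -1.87 and -1.09 on the x axis and 0.75 and 1.81 on the y axis. The dashed line marks equal values.

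The J-domain proteins of the synapse, Dnajc5 and Dnajc6, had log2 folds of opposite sign in stressed WT. Dnajc5 (cysteine string protein), which protects synaptic vesicle proteins, had 195.0 in stressed WT, 302.9 in D2R-KO, 238.7 in D2LR-KO and 330.0 in non-stressed WT, with log2 folds of -0.42 for stressed WT, -0.24 for D2R-KO and -0.43 for D2LR-KO. Dnajc6 (auxilin), which strips clathrin from vesicles, had 385.3 in stressed WT, 311.9 in D2R-KO, 332.9 in D2LR-KO and 322.2 in non-stressed WT, with log2 folds of 0.55 for stressed WT, -0.18 for D2R-KO and 0.03 for D2LR-KO. By log2 fold, stressed WT and D2LR-KO lay together below the other arrays for Dnajc5, and stressed WT was the highest for Dnajc6, with neither gene past 1.5-fold. For Dnajc5 in stressed WT, the local background gave -1.03, median scaling -0.87 and the deposited values -0.76, all past 1.5-fold. In D2LR-KO it was at -0.99 with the local background. Dnajc12, which binds aromatic amino acid hydroxylases such as the one that makes serotonin, had 299.8 in stressed WT, 525.0 in D2R-KO, 397.0 in D2LR-KO and 342.3 in non-stressed WT, with log2 folds of 0.12 for stressed WT, 0.42 for D2R-KO and 0.18 for D2LR-KO. The local background put Dnajc12 past 1.5-fold in each, at 1.03 for stressed WT, 1.61 for D2R-KO and 1.06 for D2LR-KO. Dnajc12 and Tph2 were both highest on the D2R-KO array, as were 22.4% of all genes and 29.8% of members detected on all arrays. A link between the levels of Dnajc12 and Tph2 was not tested. The 14 J-domain proteins of classes A and B other than Dnajb1 and Dnajb4 ranged in stressed WT from -1.06 for Dnajb9 to 0.25 for Dnajb6, which had 31.8 in stressed WT, 24.3 in D2R-KO, 23.1 in D2LR-KO and 22.4 in non-stressed WT.

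The small heat shock proteins went both ways. Hspb7, a small heat shock protein of heart and muscle, had 1090.7 in stressed WT, 591.9 in stressed D2R-KO, 641.5 in stressed D2LR-KO and 660.1 in non-stressed WT, with log2 folds of 1.02 for stressed WT, -0.34 for D2R-KO and -0.12 for D2LR-KO. Stressed WT alone was high, and with median scaling its value was 0.49. Hspb1 (HSP27), which is induced by heat and by injury, had 236.7 in stressed WT, 261.8 in D2R-KO, 381.7 in D2LR-KO and 497.3 in non-stressed WT, with log2 folds of -0.70 for stressed WT, -0.98 for D2R-KO and -0.38 for D2LR-KO. All 3 stressed arrays were below non-stressed WT for Hspb1, and the stressed WT value was -0.31 with the local background. Hspb6 (HSP20) had 254.2 in stressed WT, 186.7 in D2R-KO, 206.5 in D2LR-KO and 220.1 in non-stressed WT, with log2 folds of 0.46 for stressed WT, -0.31 for D2R-KO and -0.10 for D2LR-KO. Hspb8, which works with Bag3 in clearing aggregates, had 252.4 in stressed WT, 328.7 in D2R-KO, 353.5 in D2LR-KO and 261.3 in non-stressed WT, with log2 folds of 0.24 for stressed WT, 0.16 for D2R-KO and 0.37 for D2LR-KO. The local background put Hspb6 at 0.84 and Hspb8 at -1.27 in stressed WT. Hspb2, Hspb3 and Hspb9 were dim, at or below 17.5 on every array.

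On the log2 scale used here, the knockouts held few further differences against non-stressed WT. In stressed D2R-KO, 0 of 58 members were at least 1.5-fold higher, beside 0.577% of all genes, and 3 (Dnajb1, Hspb1 and Hspa2) were at least 1.5-fold lower, beside 1.49%. In stressed D2LR-KO, 0 of 58 were higher, beside 0.745%, and 2 (Dnajb1 and Hsp110) were lower, beside 1.41%. All 5 of these calls were in the cytosolic set. The members' median was -0.01 in D2R-KO and -0.06 in D2LR-KO. The highest ER members were Dnajc16 at 0.16 in D2R-KO and Dnajc18 at 0.11 in D2LR-KO. The mitochondrial medians, 0.29 in D2R-KO and 0.23 in D2LR-KO, lay above the ER medians of the same groups, -0.02 and -0.11. With median scaling 1 member was higher and 3 lower in D2R-KO, beside 0.865% and 1.57% of all genes, and 0 were higher and 10 lower in D2LR-KO, beside 0.347% and 2.90%. With the deposited values 4 were higher and 7 lower in D2R-KO, beside 7.97% and 6.62%, and 1 was higher and 5 lower in D2LR-KO, beside 6.08% and 6.82%. The 4 higher in D2R-KO and the 5 lower in D2LR-KO were near those shares. With the local background 6 were higher and 8 lower in D2R-KO, beside 7.0% and 5.1% of all genes. In D2LR-KO 6 were then higher and 7 lower, beside 6.9% and 4.8%. These calls were not all cytosolic. In the ER, Dnajb11 was at -0.79 and Dnajc3 at -0.71 in D2R-KO with that background.

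**Figure D4:**
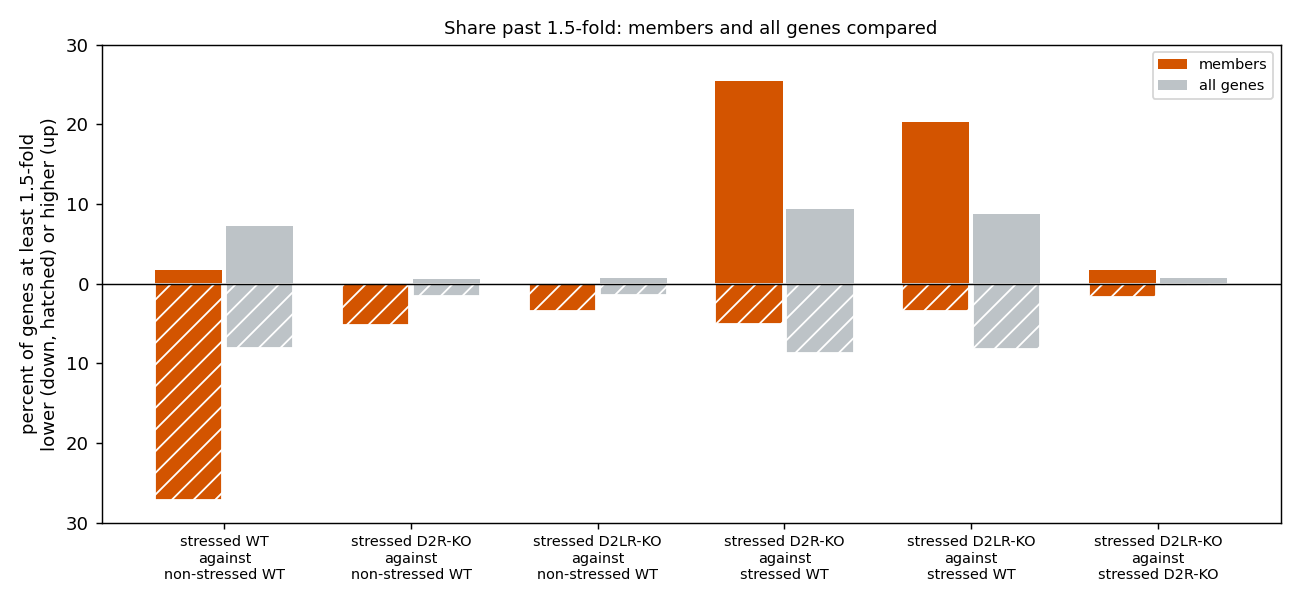
Percent of the members (orange) and of all genes compared (grey) at least 1.5-fold higher (upward bars) or lower (downward hatched bars) in each of the 6 comparisons. Members are at 27.1% lower in stressed WT against non-stressed WT, and at 25.4% and 20.3% higher in D2R-KO and D2LR-KO against stressed WT. Among genes above the median signal (not drawn), members are at 32.7%, 30.6% and 24.5% in that order. All genes there are at 14.5%, 16.8% and 15.5%.

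Set against stressed WT, more members were higher than lower in both knockouts, and these comparisons share that array with each other and with the first. In D2R-KO 15 of 59 members were at least 1.5-fold higher, beside 9.33% of all genes, and 3 were lower, beside 8.64%. In D2LR-KO 12 of 59 were higher, beside 8.72%, and 2 were lower, beside 8.2%. Bright genes passed the threshold more often here too. Among genes above the median signal, 16.8% were higher in D2R-KO, beside 15 of the 49 members there (30.6%). In D2LR-KO 15.5% of those genes were higher, beside 12 of the 49 members (24.5%). The members' median was 0.08 in D2R-KO and 0.10 in D2LR-KO. By place, 4 of 12 ER members were higher in each knockout. Of the 6 mitochondrial members, 4 were higher in D2R-KO and 3 in D2LR-KO. Of 39 cytosolic members, 7 were higher and 3 lower in D2R-KO, and 5 were higher and 2 lower in D2LR-KO. With median scaling 25 members were higher and 1 lower in D2R-KO, beside 18.5% and 3.76% of all genes, an upward share of 96.2% in place of 83.3%. With the deposited values 22 were higher and 1 lower in D2LR-KO, beside 25.4% and 23.3%. With the local background 9 were higher and 5 lower there, beside 7.28% and 6.87%, an upward share of 64.3% in place of 85.7%.

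The largest of these values belonged to Dnajc7, at 1.72 in D2R-KO and 1.40 in D2LR-KO against stressed WT. With the local background the D2R-KO value of Dnajc7 was 0.57. Dnajc10 led the ER, at 1.36 in D2R-KO and 1.15 in D2LR-KO, and Hspa5 was at 1.04 in D2R-KO and 0.88 in D2LR-KO. Dnajc15 led the mitochondrial set, at 1.32 in D2R-KO and 1.13 in D2LR-KO, followed by Hspa9 at 1.18 in D2R-KO and 1.04 in D2LR-KO. The lowest ER member was Dnajc14, at -0.37 in D2R-KO and -0.45 in D2LR-KO, and the lowest mitochondrial member Dnaja3, at -0.32 in D2R-KO and -0.15 in D2LR-KO. Hspb7 was the lowest of all, at -1.36 in D2R-KO and -1.14 in D2LR-KO. The other lower members were Hspb6 at -0.77 and Dnajc6 at -0.73 in D2R-KO, and Hsp90ab1 at -0.73 in D2LR-KO, and each of those 3 was under 1.5-fold with median scaling, at -0.30, -0.19 and -0.27. For Dnaja1 and Dnajb4 in D2LR-KO, values of 0.88 and 1.10 became -1.10 and -0.62 under the local background. That background also left under 1.5-fold the values of Dnajb11 (0.40), Dnajc2 (0.04), Dnajc8 (0.22) and Hspb6 (-0.51) in D2R-KO, and of Dnajb9 (0.46), Dnajc8 (0.44), Dnajc9 (0.18) and Hsp90ab1 (-0.35) in D2LR-KO.

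Stressed D2LR-KO and stressed D2R-KO were close. Of 58 members 1 (Hspb1) was at least 1.5-fold higher in D2LR-KO, beside 0.66% of all genes, and 1 (Dnajc9) was lower, beside 0.333%. Hspb1 had 381.7 in D2LR-KO and 261.8 in D2R-KO, a log2 fold of 0.60, which was 0.38 with median scaling and 0.54 in the deposited values. Dnajc9 had 377.9 in D2LR-KO and 649.1 in D2R-KO, a log2 fold of -0.60. The ER median was -0.16, with 9 of 12 members below 0, the lowest being Dnajb9 at -0.38. All 3 HSP90 genes were below 0, with a median of -0.29. In mitochondria the highest was Dnaja3 at 0.17 and the lowest Dnajc15 at -0.19. Of the 7 small heat shock proteins 6 were above 0, with a median of 0.21, and Hspb2, Hspb6, Hspb7 and Hspb8 all lay at 0.21 to 0.22. With the local background those genes were at 0.18, -0.20, 0.42 and 0.92, in that order. Of 5 smooth muscle markers, 4 were at least 1.5-fold higher in D2LR-KO, beside 0.66% of all genes. Acta2 had 1364.9 in D2LR-KO and 512.7 in D2R-KO, and Tagln had 426.4 in D2LR-KO and 137.2 in D2R-KO. The 5 markers summed to 1894.3 in D2LR-KO and 701.9 in D2R-KO, and Mylk alone was lower, with 11.5 in D2LR-KO and 13.9 in D2R-KO. In stressed WT, where Hspb6 and Hspb7 were highest, the 5 markers had their lowest sum, 301.5, beside 472.9 in non-stressed WT. Their part in the small heat shock protein values was not tested.

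**Figure D5:**
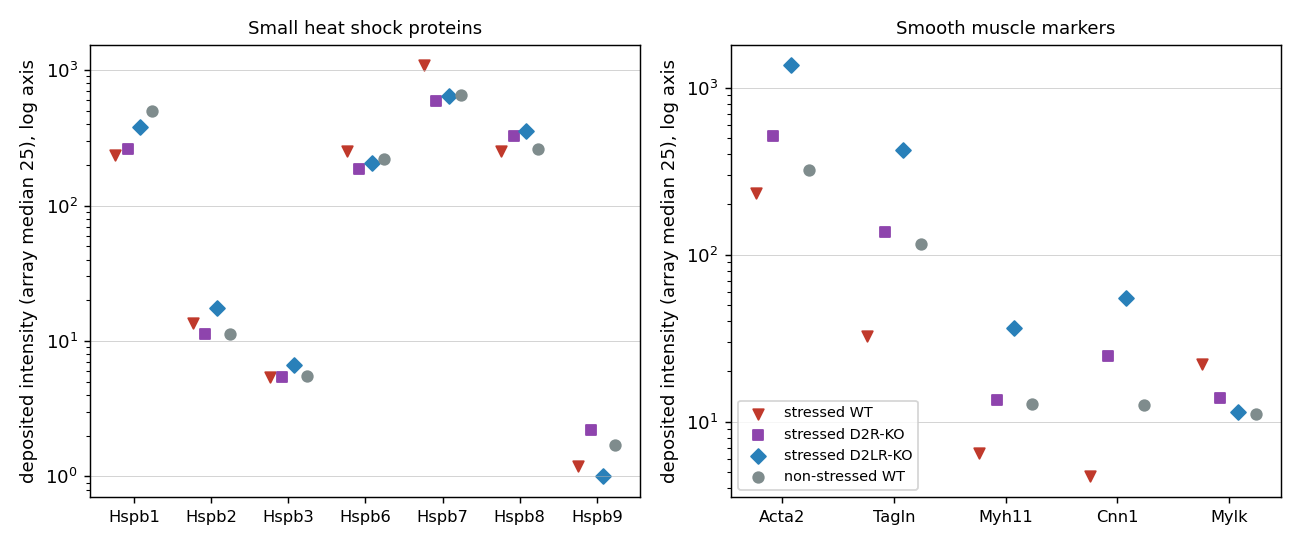
Deposited intensity (array median 25, log axis) of the 7 small heat shock proteins (left) and 5 smooth muscle markers (right) on the 4 arrays. Hspb7 is highest in stressed WT, at 1090.7, and Hspb1 lowest there, at 236.7. Acta2 and Tagln are highest in D2LR-KO, at 1364.9 and 426.4.

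Partners of the chaperones were read from 5 lists, of which 65 genes were measured. In stressed WT against non-stressed WT 1 of the 65 was at least 1.5-fold higher, beside 7.27% of all genes, and 14 were lower, beside 8.12%, with a median of -0.07. Of 20 co-chaperones of cytosolic HSP70 and HSP90, 1 was higher and 6 lower, a lower share of 30.0%. Chordc1, an HSP90 co-chaperone, had 27.9 in stressed WT, 177.5 in D2R-KO, 152.4 in D2LR-KO and 167.7 in non-stressed WT, a log2 fold of -1.76 in stressed WT. Ppid, an HSP90-binding prolyl isomerase, had 191.7 in stressed WT, 994.6 in D2R-KO, 698.2 in D2LR-KO and 755.5 in non-stressed WT, with -1.61. Bag6, which guards hydrophobic proteins released from ribosomes, had 558.2 in stressed WT, 422.1 in D2R-KO, 341.4 in D2LR-KO and 308.6 in non-stressed WT, with 1.12. Of the 6 chaperonin subunits 1 was lower, of 9 mitochondrial partners 1 was lower, and none of these was higher. With the local background 9 of the 65 partners were higher and 17 lower, beside 9.88% and 9.96% of all genes. Chordc1, Ppid and Bag6 were then at -1.55, -1.43 and 0.94 in stressed WT. Stip1 and Stub1, at -0.95 and -0.62 before, turned to 1.15 and 1.55.

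Of 26 ER folding and unfolded protein response genes 0 were higher and 6 lower in stressed WT, a lower share of 23.1%, beside the 8.12% of all genes. Atf4, the transcription factor translated when eIF2α is phosphorylated, had 369.0 in stressed WT, 1196.6 in D2R-KO, 1061.6 in D2LR-KO and 1005.7 in non-stressed WT, with log2 folds of -1.06 for stressed WT, 0.08 for D2R-KO and 0.04 for D2LR-KO. Its target Ddit3 (CHOP) had 163.7 in stressed WT, 426.4 in D2R-KO, 364.0 in D2LR-KO and 381.5 in non-stressed WT, with -0.87 for stressed WT, 0.01 for D2R-KO and -0.07 for D2LR-KO. Xbp1, spliced by the ER sensor IRE1, had 508.8 in stressed WT, 773.4 in D2R-KO, 838.1 in D2LR-KO and 876.8 in non-stressed WT, with -0.45 for stressed WT, -0.38 for D2R-KO and -0.12 for D2LR-KO. Stressed WT was lowest for these 3 factors. Atf6 was dim, at 15.4 in stressed WT, 18.5 in D2R-KO, 20.5 in D2LR-KO and 15.7 in non-stressed WT. Hsf1, the heat shock factor of the stress response, had 56.2 in stressed WT, 49.9 in D2R-KO, 45.3 in D2LR-KO and 57.8 in non-stressed WT, with log2 folds of 0.08 for stressed WT, -0.16 for D2R-KO and -0.21 for D2LR-KO. Hsf2 was dim, at 7.1 in stressed WT, 8.5 in D2R-KO, 7.8 in D2LR-KO and 10.8 in non-stressed WT.

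In both knockouts against non-stressed WT, Pdia6, an ER disulfide isomerase, was the only partner past 1.5-fold, at -0.70 in D2R-KO and -0.62 in D2LR-KO, followed by Manf, a secreted ER stress protein, at -0.50 in D2R-KO and -0.55 in D2LR-KO. The highest were Fkbp4 at 0.46 and Eif2ak3 at 0.31 in D2R-KO, and Sec63 at 0.41 and P4hb at 0.28 in D2LR-KO. The local background put more partners past 1.5-fold. In D2R-KO 11 were then higher and 4 lower, beside 7.0% and 5.1% of all genes. In D2LR-KO 9 were higher and 10 lower, beside 6.9% and 4.8%. P4hb was then at 2.78 in D2R-KO and 3.50 in D2LR-KO, and Pdia6 at -0.74 and -1.06. Against stressed WT, 14 partners were higher and 5 lower in D2R-KO, beside 9.33% and 8.64% of all genes, and 11 were higher and 2 lower in D2LR-KO, beside 8.72% and 8.2%. The 5 lower in D2R-KO, 7.69% of the 65, were near the share of all genes. Ppid and Chordc1 led, at 1.79 and 1.73 in D2R-KO and 1.42 and 1.63 in D2LR-KO. Bag6 and Pdia6 were lowest, at -0.85 and -0.98 in D2R-KO and -1.01 and -0.90 in D2LR-KO. In D2LR-KO against D2R-KO, Eif2ak3 (PERK), the kinase sensor of ER stress, was lower at -0.62, with 73.7 in D2LR-KO and 139.9 in D2R-KO, and Sgtb was at -0.51. Hspbp1 and Cct3 were the highest there, at 0.34 and 0.32.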

How the data were processed

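Per the labels, RNA from the dissected nucleus was extracted with a Qiagen column kit, amplified as amino allyl aRNA, coupled to Cy5 and hybridised to Toray arrays. Per the file headers, the scanner files hold the median intensity of each spot and around it, not background-subtracted, from scans at 3 gains. The authors' deposited table holds linear intensity with an array median of 25. The sources used here do not state how it was made. It leaves 1499 to 1540 probes of an array without a value.

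Spot medians were corrected by normexp on the 2736 blank spots (nec of limma 3.58.1, R 4.3.3, offset 50) and quantile-normalized over the 4 arrays. A spot counted as detected above a limit set 2 SD over the blank mean (38.0 to 40.3). The probe table gave 16631 of 23473 probes 1 symbol. Of 16446 symbols, 12501 were current in RefSeq, 3883 were updated and 62 kept. The probe with the highest mean signal stood for each of 229 genes with several, and 9 unusable probes were left out. Folds compare genes detected on at least 1 of the 2 arrays. Counts and figures used Python 3.11.15, numpy 2.4.6, pandas 2.3.3 and matplotlib 3.10.9. The normalization was tested on simulated arrays in which few probes differed, all of them bright and equally up and down. The stressed WT array differs from that setting, so the simulation does not cover its comparisons. The local background was not simulated. The members, compartments, marker and partner lists were chosen with earlier results of these data known. Named are core members, members at least 2-fold apart from non-stressed WT, the highest and lowest member per compartment, 6 transcription factors, the 2 highest and 2 lowest partners per comparison, and further members chosen after their values were seen. Alternatives were the local background around each spot, which followed the spot itself (log2 correlation 0.876 to 0.958), median scaling, an offset of 16, the deposited values, 2-fold, other detection rules and the mean of probes. Protein sequences were not used here.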

Additional observations from a re-analysis of the deposited data

How the results depend on the processing

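Numbers of members higher and lower were recounted under each alternative. Shares of all genes are added here where they are not given above. For stressed WT against non-stressed WT (1 higher and 16 lower) the background around each spot gave 7 higher, median scaling 0 higher and 25 lower, the deposited values 2 higher and 26 lower, and 2-fold 7 lower. At 2-fold 2.15% of all genes were lower. For D2R-KO against non-stressed WT (0 and 3) the background around each spot gave 6 higher and 8 lower, median scaling 1 higher, the deposited values 4 higher and 7 lower, 2-fold 0 lower and an offset of 16 gave 1 higher. For D2LR-KO set against non-stressed WT (0 and 2) the background around each spot gave 6 and 7, median scaling 10 lower, the deposited values 1 and 5, and 2-fold 0 lower. For D2R-KO against stressed WT (15 and 3) median scaling gave 25 and 1, the deposited values 27 higher, and 2-fold 8 and 1. The deposited values put 29.2% of all genes higher, and at 2-fold 2.7% were higher and 2.6% lower. For D2LR-KO against stressed WT (12 and 2) the background around each spot gave 5 lower, median scaling 1 lower, the deposited values 22 and 1, and 2-fold 5 and 1. Of all genes 4.35% were lower with median scaling, and at 2-fold 2.6% were higher and 1.8% lower. The 5 lower with the background around each spot were near the share given above. For D2LR-KO against D2R-KO (1 and 1) the background around each spot gave 2 and 6, median scaling 0 and 4, the deposited values 2 and 5, and 2-fold 0 and 0. Of 56 calls of single members, 39 held with the local background, 13 ended and 4 turned: Dnajb4 (1.81) and Dnajc7 (0.75) in stressed WT against non-stressed WT, and Dnaja1 (-1.10) and Dnajb4 (-0.62) in D2LR-KO against stressed WT. Median scaling ended 5 of the 56, the deposited values 4 and an offset of 16 none. Leaving the stressed WT array out of the normalization, an alternative chosen after seeing the data, ended none of the 7 calls without that array. The cause of these changes was not tested. No paired analysis was possible because each group has 1 array. Leaving out a replicate was not possible for the same reason.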

Other observations

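Hspa8, Dnajc13 and Dnajb8 each had a second probe. The second Hspa8 probe had deposited intensities of 7908.2 in stressed WT, 8717.3 in D2R-KO, 7718.5 in D2LR-KO and 8886.7 in non-stressed WT, with log2 folds against non-stressed WT of 0.11 for stressed WT, -0.10 for D2R-KO and -0.28 for D2LR-KO. The 2 Hspa8 probes thus differed in sign in stressed WT, and neither reached 1.5-fold. The second Dnajc13 probe was dim, at 5.2 in stressed WT, 6.9 in D2R-KO, 5.9 in D2LR-KO and 5.3 in non-stressed WT, with log2 folds of -0.04 for stressed WT, 0.06 for D2R-KO and 0.02 for D2LR-KO. The second Dnajb8 probe, under an older symbol that does not start with Dnaj, has no deposited intensity, and its 3 log2 folds round to values of -0.01 to 0.00.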
